A study of Rattus norvegicus with 17 samples.

Results

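The genes of potassium, chloride and TRP channels were examined in the meibomian gland (MG), the lipid-secreting gland of the eyelid, of female rats with or without UVB exposure of the eyelids. The members were taken by gene symbol: those that start with Kcn (potassium channels and their subunits), Clcn, Clca or Ano (chloride channels, their regulators and the anoctamins) or Trpa, Trpc, Trpm or Trpv (TRP channels), reaching 1 TPM in 3 or more rats. TPM, a length-corrected transcript abundance, is the share of a gene among all transcripts of a sample. Of 125 such symbols, 63 met this level and 62 did not. The whole table held 17251 genes, of which 13105 met it. The 63 members were 35 potassium, 16 chloride and 12 TRP genes. One of the 12, Trpc4ap, carries the TRPC name because its protein binds TRPC4, and is no channel itself.

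The 17 female Sprague-Dawley rats were 10 to 12 weeks old and fell into 4 groups. The 4 Control WT and 5 Control P1.hMR rats had no treatment. The 3 UVB WT and 5 UVB P1.hMR rats had their shaved upper eyelids irradiated on 5 days. P1.hMR rats carry the human mineralocorticoid receptor gene NR3C2 under its proximal P1 promoter, which works with varying strength in tissues that make the receptor, so the transgene is not limited to gland cells. Where both eyes of a rat were taken the study pooled them into 1 sample, and the labels do not say for which rats. The study's methods give more eyes than samples for both UVB groups and no number of eyes for the controls. Pooling may thus differ between control and UVB samples, and any effect of this was not tested. The labels name no batch.

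Potassium channels let K+ leave the cell along its gradient and hold the membrane potential negative. Voltage-gated and calcium-activated members open on depolarization or on a calcium rise, whereas inward rectifiers and 2-pore-domain channels carry the resting current. Chloride channels of epithelia move anions together with fluid, and the intracellular ClC exchangers set the acidity of endosomes and lysosomes. TRP channels pass calcium and sodium, and several of them report heat, cold, irritants or stretch. In skin and sebaceous-type glands these families take part in fluid secretion, calcium signals of keratinocytes and sensation, the last through nerve endings whose RNA lies mostly outside the dissected tissue.

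In every rat, 12372 to 12737 genes reached 1 TPM. The human transgene stood at 0 TPM in all WT rats, at 6.77 to 9.31 TPM in Control P1.hMR and at 5.31 to 8.93 TPM in UVB P1.hMR rats. The 12 markers of gland epithelium were all present, at a summed 51800 to 62300 TPM. Other tissue was present too, since 12 skeletal muscle markers summed to 1700 to 4000 TPM and 13 hair keratins to 411 to 1770 TPM. The 6 sensory neuron markers in the table all averaged under 1 TPM.

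Most channel genes were low, and a few chloride channel genes were high. The mean over all rats was at least 20 TPM for 12 members, under 5 TPM for 39 and under 1 TPM for 9. In all 17 rats, 41 members reached 1 TPM. Highest on the TPM scale were Ano10, an anoctamin of intracellular membranes, at a mean of 132 TPM, the calcium-activated chloride channel regulators Clca5 (119 TPM) and Clca4l (103 TPM), Trpc4ap (98.0 TPM), Kcnk7 (78.3 TPM) and Clcn3 (49.5 TPM). Kcnk7 belongs to the 2-pore-domain channels but has no known current of its own. Among channels with an established current, Trpv3, the warmth-gated channel of keratinocytes, had 33.7 TPM, Kcnk1 (TWIK-1) 24.1 TPM and Ano1, the calcium-activated chloride channel of secretory epithelia, 21.8 TPM. All values of Ano10 (122 to 147 TPM) lay in a narrow span, whereas Clca5 ran from 40.6 to 229.8 TPM. At the lower edge of the rule, Clcn4 reached 1 TPM in 4 rats, and Clca1, Kcnab2 and Kcnrg missed it with 2 rats.

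**Figure D1:**
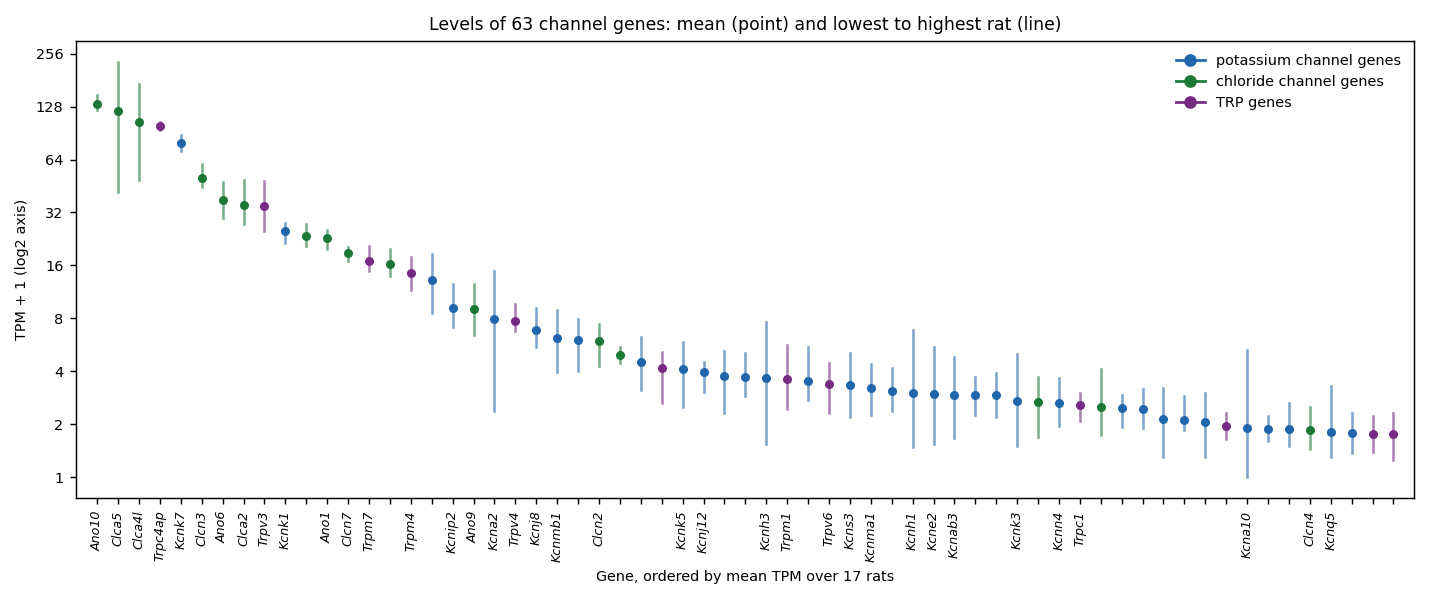
Mean TPM + 1 of each of the 63 channel genes over 17 rats (points) with the lowest and the highest rat (lines), on a log2 axis, ordered by the mean and coloured by class, with most of the genes described in the text labelled. Ano10 leads with a mean of 132 TPM, and the long lines belong to genes such as Clca5, Kcna2, Kcnh3 and Kcna10, whose groups differed after UVB.

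The first question was how UVB changed these genes within each genotype. Values were compared as log2(TPM + 1) with limma in a model of all 17 rats and 13105 genes, and a call needed a p under 0.05 after Benjamini-Hochberg adjustment together with a log2 fold change of 0.5 or more in size. This scale understates the change of low genes. In WT rats 11 of 63 members (17.5%) were called after UVB, 4 higher and 7 lower, against 7.91% of all genes tested, 3.92% higher and 3.98% lower. In P1.hMR rats 13 members (20.6%) were called, 3 higher and 10 lower, against 10.8% of all genes, 5.05% higher and 5.71% lower. The median log2 fold change was -0.01 in WT rats and -0.10 in P1.hMR rats, close to 0.01 and -0.02 over all genes, while the median absolute change was 0.204 and 0.219 against 0.142 and 0.160.

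Of the 15 members called in either genotype, 9 were called in both, with the same direction in each: Kcnk5, Kcns3 and Kcnh1 higher, and Kcna2, Clca5, Kcna10, Kcnh3, Clca4l and Kcnk3 lower. These are 81.8% of the WT calls and 69.2% of the P1.hMR calls, against 76.1% and 55.9% over all genes tested. The 2 comparisons share no rats. Kcnq5 (higher) and Trpv6 (lower) were called in WT rats alone, and Clcn2, Ano9, Kcnma1 and Kcnab3 (all lower) in P1.hMR rats alone, although the test of a difference between these responses, the interaction, passed for no member. For 3 members the rule itself favoured a difference, since they reached 1 TPM in 3 rats through 1 treatment only. Kcna10 did so in 6 control rats and no UVB rat, Kcnn3 in 5 control rats and no UVB rat, and Kcnq5 in 5 UVB rats and no control rat. Without these, 9 of 60 members were called in WT rats and 12 of 60 in P1.hMR rats.

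The other 48 members were called in neither genotype. In WT rats they ran from Kcnj13 (-0.54, adjusted p = 0.113) to Kcnj8 (0.40), and in P1.hMR rats from Kcnj13 (-0.49, adjusted p = 0.0547) to Clca2 (0.43). Over all 63 members, a change under the fold threshold that passed the adjusted p was seen for 5 (7.94%) in WT rats and 9 (14.3%) in P1.hMR rats. These shares were below the 13.6% and 28.3% of all genes. They include members called in the other genotype, such as Ano9 in WT rats and Trpv6 in P1.hMR rats.

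**Figure D2:**
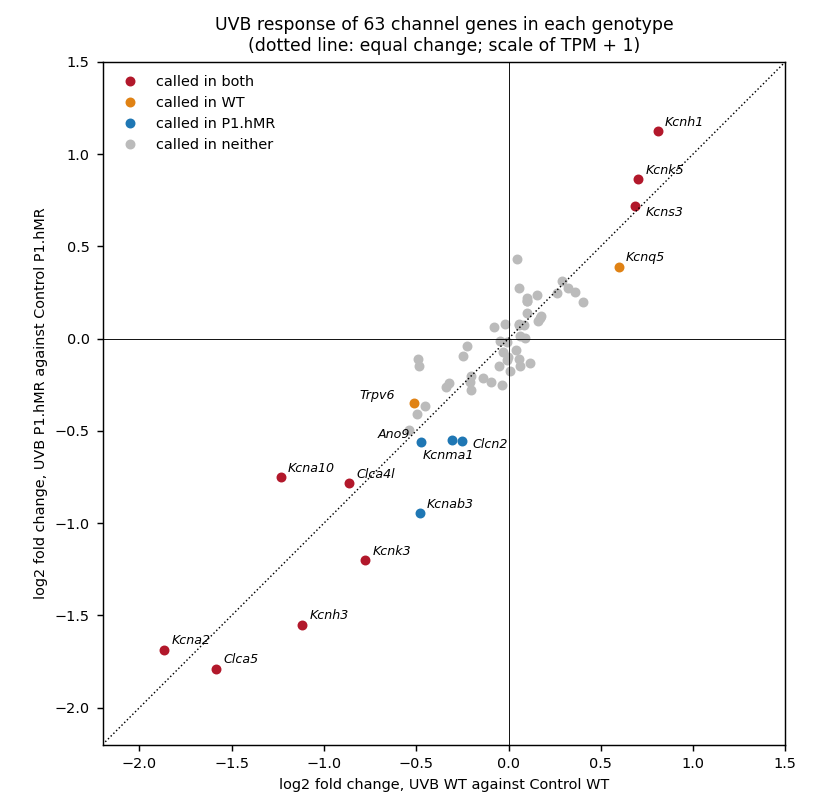
Log2 fold change after UVB of the 63 channel genes in WT rats (horizontal axis) and in P1.hMR rats (vertical axis), on the scale of TPM + 1, coloured by call. The 9 genes called in both genotypes lie near the dotted line of equal change, with Kcna2 and Clca5 at the lower left and Kcnh1 at the upper right, and 56 of the 63 members (88.9%) have the same sign in both, against 80.4% of all genes tested.

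Voltage-gated potassium channels, 11 members, held changes in both directions. In WT rats 3 were called higher and 3 lower, and in P1.hMR rats 2 higher and 3 lower. Kcna2 encodes Kv1.2, a delayed rectifier best known from axons. Its values were 9.37, 13.7, 13.9 and 10.3 TPM in Control WT and 3.78, 1.65 and 2.32 TPM in UVB WT rats. In Control P1.hMR rats they were 8.66, 11.1, 11.5, 7.03 and 12.1 TPM, and in UVB P1.hMR rats 3.05, 2.3, 2.5, 2.97 and 1.39 TPM. Every UVB rat lay below every control rat of its genotype. The UVB mean was 0.218 times the control mean in WT rats and 0.243 times in P1.hMR rats, with limma log2 fold changes of -1.87 (SE 0.22, adjusted p = 7.44e-05) and -1.69 (SE 0.18, adjusted p = 5.93e-06). In bulk tissue, fewer cells that express a gene and less RNA of it per cell cannot be told apart, and this holds for each change given here.

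Kcna10 (Kv1.8), another Kv1 channel, was near the floor. Its values were 0.69, 2.83, 4.29 and 1.15 TPM in Control WT and 0.72, 0.08 and 0.04 TPM in UVB WT rats, which overlap, with a log2 fold change of -1.23 (SE 0.32, adjusted p = 0.0118). In P1.hMR rats they were 1.31, 1.49, 1.1, 0.33 and 0.65 TPM without UVB and 0.21, 0.21, 0.08, 0.24 and 0 TPM with it, a log2 fold change of -0.75 (SE 0.26, adjusted p = 0.0322). The call in P1.hMR rats was lost on leaving out any 1 of Control P1.hMR rats 1, 2 and 3 or UVB P1.hMR rats 3 and 5, where it ran from -0.73 to -0.66 with adjusted p from 0.059 to 0.0782. Both calls were lost with a covariate for skeletal muscle markers (-0.96 and -0.56) or for hair keratins (-1.39 and -0.86).

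Kcnh3 (Kv12.2), a channel of the ether-a-go-go group known mainly from forebrain neurons, had 1.35, 3.22, 6.62 and 4.49 TPM in Control WT and 1.69, 0.8 and 0.86 TPM in UVB WT rats. In Control P1.hMR rats it had 3.84, 3.75, 4.61, 4.96 and 4.64 TPM, and in UVB P1.hMR rats 0.55, 0.62, 0.74, 1.45 and 0.88 TPM. The P1.hMR groups did not overlap, whereas Control WT rat 1, the lowest control, lay below UVB WT rat 1. Its log2 fold change was -1.12 (SE 0.28, adjusted p = 0.0104) in WT rats and -1.55 (SE 0.23, adjusted p = 9.72e-05) in P1.hMR rats. The WT call was lost with a hair keratin covariate (-1.16, adjusted p = 0.0822).

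Kcnh1 (Kv10.1), of the same ether-a-go-go group and known for its presence in dividing and tumour cells, went the other way. Control WT rats had 1.33, 0.69, 0.77 and 0.72 TPM and UVB WT rats 1.92, 2.28 and 2.61 TPM. Control P1.hMR rats had 0.86, 0.48, 0.99, 1.77 and 1.43 TPM and UVB P1.hMR rats 2.23, 2.42, 4.2, 3.56 and 5.89 TPM. Groups did not overlap in either genotype, and the log2 fold changes were 0.81 (SE 0.24, adjusted p = 0.0244) and 1.12 (SE 0.20, adjusted p = 0.000367). The WT call did not survive leaving out any 1 of Control WT rats 2, 3 and 4 or UVB WT rats 2 and 3, where the change stayed between 0.73 and 0.80 with adjusted p from 0.0534 to 0.0798.

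Kcns3 (Kv9.3), a subunit that forms no channel alone and slows Kv2 channels, was higher after UVB. The values were 1.43, 1.19, 1.53 and 1.9 TPM in Control WT, 2.42, 2.75 and 4.08 TPM in UVB WT, 1.4, 1.49, 1.49, 1.83 and 1.81 TPM in Control P1.hMR and 3.08, 3.01, 3.04, 3.92 and 3.43 TPM in UVB P1.hMR rats. All 8 UVB rats lay above all 9 control rats. The ratio of means was 2.04 in WT rats and 2.05 in P1.hMR rats, with log2 fold changes of 0.69 (SE 0.13, adjusted p = 0.00206) and 0.72 (SE 0.11, adjusted p = 0.000101).

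Kcnq5 (Kv7.5), a channel of the slow M current, was called in WT rats, where the controls had 0.3, 0.62, 0.67 and 0.5 TPM and the UVB rats 2.3, 1.17 and 0.68 TPM, a log2 fold change of 0.60 (SE 0.20, adjusted p = 0.0407). UVB WT rat 1 carried much of it: without that rat the change was 0.33 and the adjusted p 0.221. The call was also lost without any 1 Control WT rat or without UVB WT rat 2 (adjusted p from 0.0525 to 0.0846). In P1.hMR rats the change was 0.39 (SE 0.16, adjusted p = 0.0692), and with a covariate for skeletal muscle markers it was 0.65 (adjusted p = 0.00195) and was called.

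Of the 7 2-pore-domain channels, which carry background potassium current, Kcnk5 rose and Kcnk3 fell in both genotypes. Kcnk5 (TASK-2), opened by alkaline pH and involved in the volume control of epithelial cells, had 2.07, 3.05, 1.6 and 2.5 TPM in Control WT and 4.73, 4.85 and 3.45 TPM in UVB WT rats. It had 1.52, 2.27, 1.51, 2.18 and 2.09 TPM in Control P1.hMR and 4.39, 4.1, 4.59, 3.79 and 4.48 TPM in UVB P1.hMR rats. Again all 8 UVB rats lay above all 9 controls, and the log2 fold changes were 0.70 (SE 0.14, adjusted p = 0.00331) and 0.86 (SE 0.12, adjusted p = 5.14e-05). With a hair keratin covariate the WT call was lost (0.63, adjusted p = 0.0675).

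Kcnk3 (TASK-1), closed by acid, had 1.09, 2.38, 2.93 and 3.21 TPM in Control WT and 1.35, 0.79 and 0.68 TPM in UVB WT rats, 1.87, 2.32, 2.1, 4.02 and 3.3 TPM in Control P1.hMR and 0.52, 0.63, 0.6, 0.66 and 0.51 TPM in UVB P1.hMR rats. The P1.hMR groups were well apart, while in WT rats Control WT rat 1 fell below UVB WT rat 1. The log2 fold changes were -0.78 (SE 0.22, adjusted p = 0.0195) and -1.20 (SE 0.18, adjusted p = 0.000105). Leaving out any 1 of Control WT rats 3 and 4 or UVB WT rats 2 and 3 ended the WT call (-0.73 to -0.66, adjusted p from 0.0561 to 0.0751). Both abundant members of the family differed little. Kcnk7 had log2 fold changes of 0.17 (SE 0.05, adjusted p = 0.0218) and 0.12 (SE 0.04, adjusted p = 0.0275), past the adjusted p but with ratios of mean TPM of only 1.13 and 1.09. For Kcnk1 the ratio of mean TPM was 0.998 in WT rats and 0.933 in P1.hMR rats.

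Calcium-activated potassium channels were low. Kcnma1, the pore of the large-conductance BK channel, had 2.28, 2.28, 2.64, 3.42 and 3.06 TPM in Control P1.hMR and 1.75, 1.7, 1.7, 1.34 and 1.25 TPM in UVB P1.hMR rats, with no overlap and a log2 fold change of -0.55 (SE 0.12, adjusted p = 0.00207). In WT rats the controls had 2.26, 2.78, 2.62 and 2.84 TPM and the UVB rats 2.84, 1.62 and 1.48 TPM, so that UVB WT rat 1 matched the highest control, and the change was -0.31 (SE 0.15, adjusted p = 0.143). Without UVB WT rat 1 the WT change was -0.51 (adjusted p = 0.0181) and was called. The P1.hMR call depended on Control P1.hMR rat 4, without which the change was -0.48 (adjusted p = 0.00688), under the fold threshold. Its smooth muscle subunit Kcnmb1 (0.06 and -0.15) and Kcnn4, the intermediate-conductance channel (-0.08 and 0.06), were not called in either genotype.

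None of the 6 inward rectifiers was called in either genotype. Kcnj8, Kir6.1, is the pore of the ATP-sensitive channel of blood vessels. It had 4.6, 5.25, 4.5 and 5.36 TPM in Control WT and 5.64, 8.16 and 6.85 TPM in UVB WT rats, which do not overlap, and a log2 fold change of 0.40 (SE 0.11, adjusted p = 0.0176), past the adjusted p but under the fold threshold. In P1.hMR rats it had 4.67, 5.2, 5.31, 6.19 and 5.65 TPM without UVB and 5.93, 6.14, 7.21, 5.55 and 6.94 TPM with it, a change of 0.20 (SE 0.09, adjusted p = 0.0998). Without UVB WT rat 1 the WT change was 0.52 (adjusted p = 0.00693) and was called. The sum of the 7 endothelial markers moved the same way, from 64.9 to 82.3 TPM in Control WT to 87.9 to 99.9 TPM in UVB WT rats, with 1 called higher. The sums of the 10 smooth muscle and pericyte markers overlapped, at 911 to 1160 TPM and 1070 to 1180 TPM. The part of these cells in the Kcnj8 value was not tested. Kcnj12 (Kir2.2), a strong rectifier of muscle and nerve, had log2 fold changes of -0.05 and -0.01.

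Among 8 auxiliary subunits, Kcnab3 was the only one called. It encodes a Kv beta subunit. Control P1.hMR rats had 1.8, 1.94, 3.32, 2.9 and 3.83 TPM and UVB P1.hMR rats 0.94, 0.67, 0.77, 1.52 and 0.75 TPM, a log2 fold change of -0.95 (SE 0.22, adjusted p = 0.00341) without overlap. In WT rats the controls had 1.2, 2.94, 3.3 and 2.52 TPM and the UVB rats 2.86, 0.87 and 0.97 TPM, with UVB WT rat 1 well above the other UVB rats, and the change was -0.48 (SE 0.27, adjusted p = 0.217). Without that rat it was -0.82 (adjusted p = 0.04) and was called. Kcnip2 (KChIP2), a calcium-binding subunit of Kv4 channels, had 11.5, 9.97, 10.5 and 8.69 TPM in Control WT and 6.72, 7.76 and 6.42 TPM in UVB WT rats, without overlap, and a change of -0.48 (SE 0.12, adjusted p = 0.00835), just under the fold threshold. It was called, at -0.55, without Control WT rat 4 (adjusted p = 0.00683) or without UVB WT rat 2 (adjusted p = 0.0113). In P1.hMR rats its change was -0.15 (SE 0.10, adjusted p = 0.247).

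**Figure D3:**
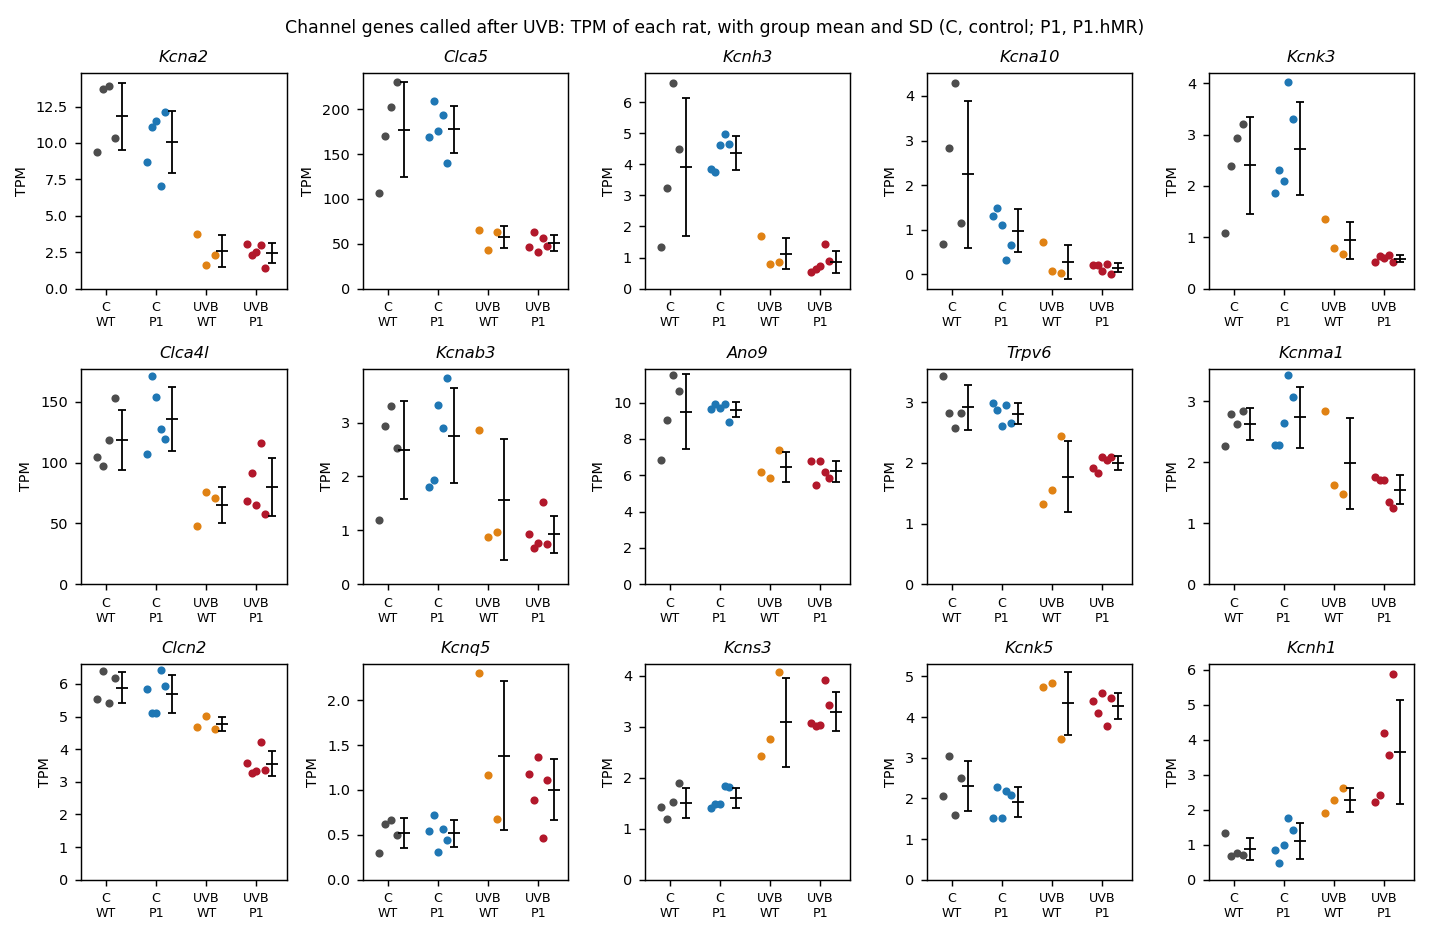
TPM of each rat (points) for the 15 channel genes called after UVB in at least 1 genotype, with the mean and SD of each group beside them, ordered by the mean log2 fold change over both genotypes, from the largest fall to the largest rise. For Kcna2, Clca5, Kcns3, Kcnk5, Kcnh1, Clcn2 and Trpv6 the UVB rats of both genotypes lie apart from the controls. Kcnh3, Kcnk3, Kcna10, Kcnab3, Kcnma1 and Ano9 overlap in WT rats, and Clca4l and Kcnq5 overlap in P1.hMR rats.

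The chloride channel genes summed to 563 to 726 TPM in Control WT and 614 to 709 TPM in Control P1.hMR rats, against 473 to 499 TPM in UVB WT and 459 to 529 TPM in UVB P1.hMR rats, so no UVB rat reached the lowest control. The anoctamins, at 208 to 237 TPM over all rats, and the ClC genes, with group means of 91.6 to 97.5 TPM, overlapped between control and UVB rats, unlike the calcium-activated chloride channel regulators. These Clca proteins are metalloproteases of the secretory pathway and cell surface that raise calcium-activated chloride currents without forming a pore themselves. Their 3 members summed to 238 to 417 TPM in Control WT, 291 to 411 TPM in Control P1.hMR, 144 to 172 TPM in UVB WT and 144 to 220 TPM in UVB P1.hMR rats. The potassium channel genes, by contrast, summed to 184 to 212 TPM in controls and 179 to 210 TPM after UVB.

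Clca5 had 106, 170.5, 203 and 229.8 TPM in Control WT and 65.2, 43 and 63.1 TPM in UVB WT rats. In Control P1.hMR rats it had 168, 209, 176, 194 and 140.5 TPM and in UVB P1.hMR rats 46.8, 62.8, 40.6, 56.5 and 47.2 TPM. The highest UVB rat, at 65.2 TPM, lay below the lowest control, at 106 TPM. The UVB mean was 0.322 and 0.286 times the control mean, with log2 fold changes of -1.58 (SE 0.22, adjusted p = 0.000231) and -1.79 (SE 0.18, adjusted p = 4.12e-06). Both the Clca5 and the Kcna2 calls held in every alternative tried, in both genotypes.

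Clca4l had 105, 96.9, 118 and 153 TPM in Control WT and 48.1, 76 and 70.5 TPM in UVB WT rats, and 107, 171, 154, 128 and 119 TPM in Control P1.hMR and 68.7, 91.3, 65, 116 and 58 TPM in UVB P1.hMR rats. The WT groups were apart, and UVB P1.hMR rat 4 overlapped with its controls. The log2 fold changes were -0.86 (SE 0.23, adjusted p = 0.0134) and -0.78 (SE 0.19, adjusted p = 0.00367). The WT call was lost without UVB WT rat 1 (-0.66, adjusted p = 0.0716) and with a hair keratin covariate (-0.73, adjusted p = 0.167). Clca2, an epithelial family member, was not lower after UVB. It had 29.7, 30.5, 32.7, 29.9 and 31.7 TPM in Control P1.hMR and 37, 42.8, 38.5, 48.1 and 45 TPM in UVB P1.hMR rats with a log2 fold change of 0.43 (SE 0.09, adjusted p = 0.0014), under the fold threshold, and one of 0.05 in WT rats. The Clca genes form a multigene family of related sequence, between which the authors' quantification could have split reads, so the level of each is uncertain.

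Of the 7 ClC genes, Clcn2 was called, and only in P1.hMR rats. It encodes ClC-2, a plasma membrane chloride channel opened by hyperpolarization. Control P1.hMR rats had 5.86, 5.1, 5.1, 6.44 and 5.95 TPM and UVB P1.hMR rats 3.59, 3.28, 3.34, 4.22 and 3.36 TPM, with no overlap and a log2 fold change of -0.55 (SE 0.08, adjusted p = 4.05e-05). Control WT rats had 5.54, 6.4, 5.42 and 6.17 TPM and UVB WT rats 4.69, 5.02 and 4.61 TPM, also without overlap, and a change of -0.25 (SE 0.09, adjusted p = 0.0577). The endosomal exchanger Clcn3 (0.10 and 0.14) and the lysosomal Clcn7 (-0.01 and -0.02) were the most abundant of the family and were not called in either genotype.

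Anoctamins comprise calcium-activated chloride channels and lipid scramblases. Ano9 fell in P1.hMR rats, from 9.63, 9.91, 9.71, 9.91 and 8.92 TPM to 6.79, 5.47, 6.79, 6.18 and 5.86 TPM with a log2 fold change of -0.56 (SE 0.10, adjusted p = 0.000561), and every UVB P1.hMR rat lay below every control. With the hair keratin covariate the change was -0.45 (adjusted p = 0.0146), under the fold threshold. In WT rats it had 6.83, 9.02, 11.5 and 10.6 TPM and 6.2, 5.82 and 7.41 TPM, with a change of -0.47 (SE 0.13, adjusted p = 0.014). The WT groups overlapped in Control WT rat 1, without which the change was -0.61 (adjusted p = 0.000851) and was called, and without UVB WT rat 3 it was -0.56 (adjusted p = 0.0133) and was called too. The abundant members were not called in either genotype. Ano10 had log2 fold changes of 0.04 and -0.06, and Ano6, the scramblase that exposes phosphatidylserine, of 0.11 and -0.13. Ano1 had 0.10 (SE 0.07, adjusted p = 0.303) in WT rats and 0.22 (SE 0.06, adjusted p = 0.00549) in P1.hMR rats, the latter past the adjusted p but under the fold threshold.

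Among the TRP genes, Trpv6, a calcium-selective channel of epithelial calcium uptake, was the only call. Control WT rats had 3.44, 2.83, 2.58 and 2.82 TPM and UVB WT rats 1.33, 1.55 and 2.44 TPM, and the change of -0.51 (SE 0.11, adjusted p = 0.00512) was just past the fold threshold. In P1.hMR rats it went from 2.99, 2.87, 2.61, 2.95 and 2.65 TPM to 1.92, 1.83, 2.1, 2.04 and 2.1 TPM, also without overlap, with -0.35 (SE 0.09, adjusted p = 0.00817). The WT call was lost on leaving out any 1 of Control WT rat 1 or UVB WT rats 1 and 2 (-0.46 to -0.40), with quantile normalization (-0.50) and with sample weights (-0.44).

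The thermal and irritant sensors gave no call. Trpv3 was the most abundant of them, with 43.5, 47.3, 33.6 and 34.9 TPM in Control WT and 24.1, 25.9 and 34.5 TPM in UVB WT rats, with a log2 fold change of -0.49 (SE 0.16, adjusted p = 0.0425), under the fold threshold. Control WT rats 3 and 4 and UVB WT rat 3 each decided this, since without any 1 of them it was called, at -0.64 to -0.55 (adjusted p from 0.02 to 0.0439). Its change was -0.11 (SE 0.14, adjusted p = 0.537) in P1.hMR rats. Trpv4, opened by cell swelling and moderate warmth, had log2 fold changes of -0.23 (SE 0.09, adjusted p = 0.0717) and -0.04 (SE 0.07, adjusted p = 0.667). Trpv1, the capsaicin receptor, and Trpm8, the menthol receptor, did not reach 1 TPM in any rat, with highest values of 0.82 and 0.24 TPM. Trpa1 was not analysed here. Trpm7, a channel joined to a kinase and a route for magnesium, had log2 fold changes of 0.10 (SE 0.07, adjusted p = 0.304) and 0.20 (SE 0.06, adjusted p = 0.00847), and Trpm4, a sodium channel opened by calcium, of -0.04 (SE 0.09, adjusted p = 0.809) and -0.25 (SE 0.07, adjusted p = 0.0128). Trpc1 (-0.14 and -0.21) and Trpc4ap (0.06 and 0.02) were not called in either genotype.

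Several markers of other tissues moved with UVB as well. Of the 13 hair keratins, 9 were lower in WT rats and 7 in P1.hMR rats, and their sum went from 1070 to 1430 TPM in Control WT and 867 to 1770 TPM in Control P1.hMR to 411 to 1130 TPM in UVB WT and 588 to 919 TPM in UVB P1.hMR rats. Of the 12 skeletal muscle markers, 3 and 4 were lower, with sums of 2630 to 3710 TPM and 2270 to 4000 TPM in the controls and 1700 to 3130 TPM and 1880 to 3470 TPM after UVB. Neuron and Schwann cell markers, 11 genes, summed to 110 to 124 TPM in Control WT and 103 to 150 TPM in Control P1.hMR and to 85.7 to 95.6 TPM in UVB WT and 93.6 to 104 TPM in UVB P1.hMR rats. Of the 7 tested, 3 were lower and 1 was higher in WT rats, and 2 were lower and 1 higher in P1.hMR rats. S100b, made by Schwann cells, fell in both genotypes, while Tubb3, a tubulin of neurons, rose.

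Of the 10 smooth muscle and pericyte markers, 2 were higher in WT rats and 1 was lower in P1.hMR rats, and 1 of 7 endothelial markers was higher in each. Of the 10 myeloid markers 4 were higher in each genotype, of 5 T cell markers tested 2, and of 6 mast cell markers tested 3 in WT rats and 5 in P1.hMR rats. The mast cell sum went from 21.9 to 32.4 TPM in the controls to 40.2 to 68.1 TPM after UVB. Of the 12 gland epithelium markers, 1 was higher and 2 were lower in each genotype. None of the 7 sensory neuron markers was tested, and the 6 in the table summed to 0.37 to 0.76 TPM in the controls and 0.62 to 1.32 TPM after UVB.

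The same rats recurred at the edges of the WT groups. For the 7 genes called lower in WT rats, Control WT rat 1 was the lowest control for 5 and UVB WT rat 1 the highest UVB rat for 5. Control WT rat 1 also lay at one end of the second principal component of all genes and had the highest level of the rat receptor gene Nr3c2, 25.9 TPM. With the hair keratins as a covariate, the number of members called became 3 in WT rats and 12 in P1.hMR rats, and in WT rats Kcna2, Clca5 and Kcns3 remained. Among all 13105 genes, the same fit called 395 higher and 220 lower in WT rats, and 718 higher and 655 lower in P1.hMR rats. In WT rats the share of members called was then close to that of all genes. The 8 WT changes no longer called had adjusted p from 0.0636 to 0.285 in that fit, but their sizes were -1.39 for Kcna10, -1.16 for Kcnh3, -0.74 for Kcnk3, -0.73 for Clca4l, 0.78 for Kcnh1, 0.63 for Kcnk5, 0.50 for Kcnq5 and -0.32 for Trpv6. With skeletal muscle as a covariate the number of members called was 11 and 14, of which 6 and 11 were among the members called without it. Of all 13105 genes, that fit called 484 higher and 438 lower in WT rats, and 652 higher and 696 lower in P1.hMR rats. In that fit Kcnh3 (-1.04, adjusted p = 0.0525), Kcnk3 (-0.66, adjusted p = 0.102), Kcnh1 (0.75, adjusted p = 0.0916) and Kcns3 (0.48, adjusted p = 0.0192, under the fold threshold) were no longer called in WT rats, and Kcnma1 (-0.45, adjusted p = 0.017) no longer in P1.hMR rats. The part of hair and muscle in these values beyond such covariates was not tested. Ano5 (0.81, adjusted p = 0.00185) was among the members called in WT rats with the muscle covariate, and Ano5 (0.62) and Kcnq5 (0.65) were in P1.hMR rats. Melanocyte markers, 7 genes, of which 4 were lower in WT rats and none in P1.hMR rats, summed to 76.8 to 140.0 TPM in Control WT and 57.8 to 67.4 TPM in UVB WT rats. The ranges were 92.8 to 139 TPM in Control P1.hMR and 77.5 to 133 TPM in UVB P1.hMR rats. Beside them stood Trpm1, a melanocyte channel and a TRPM member, named here after its values were seen. It had a change of -0.49 (SE 0.18, adjusted p = 0.0665) in WT rats and -0.41 (SE 0.15, adjusted p = 0.0446) in P1.hMR rats. With the muscle covariate it was called in both, at -0.68 (adjusted p = 0.0359) and -0.54 (adjusted p = 0.0196), and in P1.hMR rats also with a pseudocount of 0.1 (-0.54, adjusted p = 0.0459). The part of melanocytes in it was not tested.

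The called genes include neighbours on the chromosome. Members were taken by family symbol, which also takes adjacent genes of a family, so the adjacency gives no separate evidence about the calls. For the Clca genes, reads could also have been split between them, as stated above. In the RefSeq annotation of the GRCr8 assembly, Kcna2 and Kcna10 follow each other with no protein-coding gene between them, and so do Clca5 and Clca4l. All 4 were called lower in both genotypes, though Kcna10 reached 1 TPM in control rats only, which favoured a fall, and its P1.hMR call was lost in 7 alternatives. Kcna3, on the other side of Kcna2, averaged 0.31 TPM. In the Clca row Clca4 and Clca1 come next, at means of 0.22 and 0.39 TPM, followed by Clca2, which was not lower after UVB. Kcnk5 likewise adjoins Kcnk16, a further 2-pore-domain channel, which had a log2 fold change of 0.17 in WT rats and 0.11 in P1.hMR rats and was not called.

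For 49 members, 12 of them called, RefSeq (GRCr8) gives a promoter, of which the 250 bases before the start were searched on both strands. The windows shown were chosen by the mean log2 fold change over both genotypes, among the genes called in both. They are those with the largest falls (Kcna2 and Clca5) and the largest rises (Kcnh1 and Kcnk5). Capitals mark matches to the GC box (GGGCGG or its complement), the CCAAT box (CCAAT) or the AP-1 site (TGANTCA).
Kcna2, chr2:197393280-197393529, plus strand: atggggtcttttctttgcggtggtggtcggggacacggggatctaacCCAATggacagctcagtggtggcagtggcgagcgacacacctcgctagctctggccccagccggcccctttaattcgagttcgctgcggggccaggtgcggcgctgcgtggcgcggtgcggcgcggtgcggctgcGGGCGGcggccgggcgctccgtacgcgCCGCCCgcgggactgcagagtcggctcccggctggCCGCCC
Clca5, chr2:236479221-236479470, minus strand: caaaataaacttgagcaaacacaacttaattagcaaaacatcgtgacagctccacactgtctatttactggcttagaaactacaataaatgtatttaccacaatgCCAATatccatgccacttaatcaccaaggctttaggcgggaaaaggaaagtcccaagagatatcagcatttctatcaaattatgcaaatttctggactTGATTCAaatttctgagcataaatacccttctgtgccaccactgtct
Kcnh1, chr13:106252966-106253215, plus strand: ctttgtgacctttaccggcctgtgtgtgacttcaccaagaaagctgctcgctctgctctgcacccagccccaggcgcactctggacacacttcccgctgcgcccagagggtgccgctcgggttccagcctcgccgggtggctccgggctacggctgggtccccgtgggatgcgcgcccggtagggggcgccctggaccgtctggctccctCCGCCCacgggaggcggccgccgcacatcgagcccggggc
Kcnk5, chr15:4171375-4171624, plus strand: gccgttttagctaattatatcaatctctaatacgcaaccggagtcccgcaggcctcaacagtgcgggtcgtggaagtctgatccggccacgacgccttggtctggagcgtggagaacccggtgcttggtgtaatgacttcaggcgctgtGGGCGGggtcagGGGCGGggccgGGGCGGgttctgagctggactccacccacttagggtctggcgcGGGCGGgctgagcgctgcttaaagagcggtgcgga
Kcna2, Kcnh1 and Kcnk5 hold GC boxes, Kcna2 a CCAAT box as well, and Clca5 holds a CCAAT box and an AP-1 match and no GC box. The GC box was found in 23 of the 49 windows (46.9%), against 32.4% of all 27457 promoters, and the CCAAT box in 12 (24.5%, against 34.3%). The AP-1 letters were in 4 (8.16%, against 6.36%), with Clca5 and Clca4l the called genes among them. The half-site AGAACA that steroid receptors including the mineralocorticoid receptor can bind was in 5 (10.2%, against 17.1%), with Clca4l, Kcnab3 and Trpv6 among the called genes, and the TATA box (TATAAA) in 3 (6.12%, against 13.1%). A match is a run of letters, not a shown binding site.

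The second question was whether the human receptor changed these genes. With UVB P1.hMR set against UVB WT rats, limma called none of the 63 members, against 0.0229% of all genes, and 5 (7.94%) had an unadjusted p under 0.05, against 10.3% of all genes. With Control P1.hMR set against Control WT rats none was called (0.00763% of all genes), and 4 (6.35%) had an unadjusted p under 0.05, against 4.03%. The interaction, the test of whether UVB changed a gene differently in the 2 genotypes, called none (0% of all genes), and 3 members (4.76%) had an unadjusted p under 0.05, against 6.92%. The smallest adjusted p among the members was 0.226, 0.998 and 0.704 in these comparisons. These shares lay close to the background, a little below it under UVB and for the interaction and a little above it between the control groups. With so few members, no pattern is read from them.

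The members nearest to a difference were few. Clcn2 was lower in all 5 UVB P1.hMR rats (3.28 to 4.22 TPM) than in all 3 UVB WT rats (4.61 to 5.02 TPM), a log2 difference of -0.34 (95% interval -0.53 to -0.16), with an adjusted p of 0.226 in limma and a two-sided exact permutation p of 0.0357, the smallest that 5 against 3 rats allow. Its interaction was -0.30 (-0.55 to -0.05, adjusted p = 0.704). Without UVB the groups overlapped, with 5.1 to 6.44 and 5.42 to 6.4 TPM. The exact permutation p does not set Clcn2 apart, since Ano10, Kcne2, Kcnmb1 and Kcnk3 also had 0.0357 between the UVB groups. Kcnk3 had 0.51 to 0.66 TPM in UVB P1.hMR and 0.68 to 1.35 TPM in UVB WT rats.

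Clca2, named here after its values were seen, as are Kcne2 and the neighbours above, had 37 to 48.1 TPM in UVB P1.hMR and 26.5 to 38.5 TPM in UVB WT rats. The difference was 0.41 (95% interval 0.19 to 0.63, adjusted p = 0.228 in limma), and the interaction 0.39 (adjusted p = 0.704). UVB WT rat 3, the highest of its group, decided this result, since without it the difference was 0.55 (adjusted p = 0.0182) and Clca2 was called. Kcne2, a small subunit that modifies several potassium channels, had 1.69, 2, 1.8, 1.8 and 2.29 TPM in UVB P1.hMR and 0.78, 0.54 and 1.56 TPM in UVB WT rats, a difference of 0.60 (adjusted p = 0.327). It was in the same direction without UVB, by 0.52 (adjusted p = 0.998), with 1.69, 2.36, 2.05, 4.51 and 3.89 TPM in Control P1.hMR and 1.55, 1.74, 1.53 and 1.68 TPM in Control WT rats.

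Kcnmb1 was lower in UVB P1.hMR (2.99 to 5.25 TPM) than in UVB WT rats (5.66 to 6.69 TPM), a log2 difference of -0.47 (adjusted p = 0.42). The sum of the 10 smooth muscle and pericyte markers differed the same way, at 864 to 954 TPM and 1070 to 1180 TPM, with none of the 10 called. Their part in the Kcnmb1 value was not tested. Ano10 had a log2 difference of -0.16 (adjusted p = 0.279), with 122 to 129 TPM in UVB P1.hMR and 131 to 147 TPM in UVB WT rats. Kcnip2 was at 6.16 to 9.59 TPM in Control P1.hMR and 8.69 to 11.5 TPM in Control WT rats (difference -0.30, adjusted p = 0.998), with an interaction of 0.34 (adjusted p = 0.711). For Kcna2 the interval of the difference between UVB groups was -0.49 to 0.41, and for Clca5 -0.61 to 0.29, so a difference within these bounds could not be told from none.

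**Figure D4:**
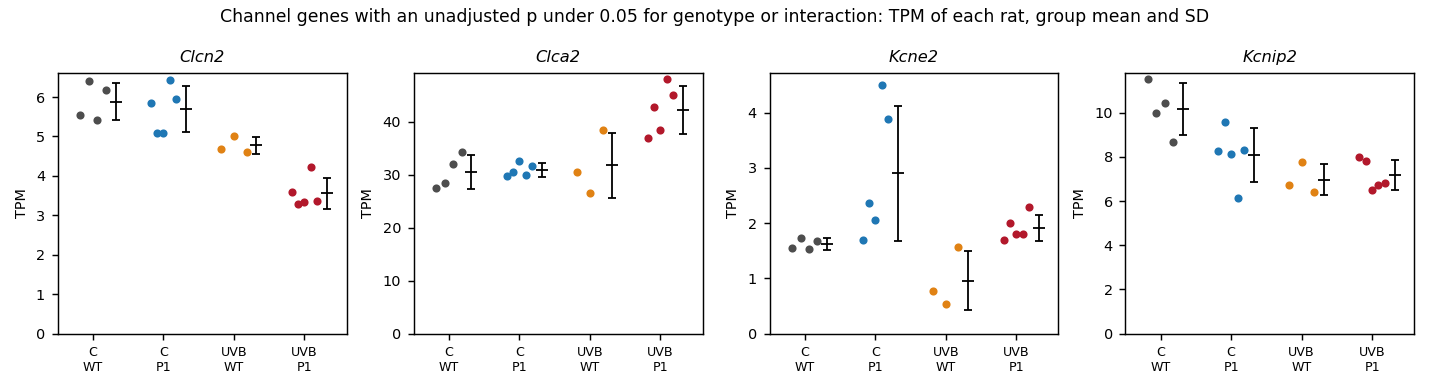
TPM of each rat (points) with the mean and SD of each group for Clcn2, Clca2, Kcne2 and Kcnip2, which had an unadjusted p under 0.05 in a genotype comparison or the interaction. UVB P1.hMR rats lie below UVB WT rats for Clcn2 (3.28 to 4.22 against 4.61 to 5.02 TPM) and above them for Kcne2, and no gene passed the adjusted p.

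Genes that work with these channels were read from 4 lists. Of all genes tested, 7.91% were called in WT rats and 10.8% in P1.hMR rats, and no list was tested against these shares. Of 7 channel partners tested out of 16, Lrrc26, which lets BK channels open at rest in secretory cells, fell in P1.hMR rats, from 7.94 to 9.94 TPM to 3.88 to 8.34 TPM, with a log2 fold change of -0.70 (SE 0.15, adjusted p = 0.00155) and some overlap, and had -0.51 (SE 0.18, adjusted p = 0.0517) in WT rats. Of 11 other chloride channels tested out of 16, Best2, a bestrophin channel gated by calcium, fell in both genotypes. It went from 2.02 to 2.69 TPM to 0.49 to 1.16 TPM in WT rats and from 1.29 to 3.08 TPM to 0.7 to 0.99 TPM in P1.hMR rats, with no overlap in either. Its log2 fold changes were -0.87 (SE 0.16, adjusted p = 0.00186) and -0.81 (SE 0.14, adjusted p = 0.000241).

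Of 13 cation-chloride cotransporters and their kinases tested out of 17, 1 fell in WT rats and 3 in P1.hMR rats, and none rose. Of all genes tested, 3.98% were called lower in WT rats and 5.71% in P1.hMR rats. Sgk1, the kinase induced by aldosterone that regulates several ion transporters, went from 59.2 to 74.5 TPM to 41.2 to 49.8 TPM in WT rats and from 52.1 to 77 TPM to 39 to 44.6 TPM in P1.hMR rats. Its log2 fold changes were -0.55 (SE 0.11, adjusted p = 0.00251) and -0.59 (SE 0.09, adjusted p = 0.000116). With UVB P1.hMR set against UVB WT rats, it was not called, nor was it between the control groups. Slc12a8 (-0.71) and the kinase Wnk2 (-0.51) fell in P1.hMR rats. The 9 other TRP and calcium entry channels tested out of 13, which include Piezo, Orai and Stim genes, gave no call, with median log2 fold changes of -0.17 in WT rats and -0.10 in P1.hMR rats.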

How the data were processed

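RNA of MG from 17 rats was sequenced. The authors deposited 1 table of TPM per gene and rat, made with STAR 2.5.3 on rn7 and RSEM 1.2.28 per the study's methods. The submitters' processing notes also name FastQC, Trimmomatic, DRAGEN and Picard. TPM keeps no read counts, so depth is unknown, no counting interval can be given, and the number of rats limits the precision. The TPM listed summed to 804378 to 840817 per rat. Decimal commas were read as points.

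From the deposited TPM, log2(TPM + 1) was fitted with limma 3.58.1 (R 4.3.3) with a variance trend and a mean per group over all 17 rats, for the 13105 genes at 1 TPM or more in at least 3 rats. P-values were adjusted by the Benjamini-Hochberg method. The fit was tested on simulated data. Single values were tested with exact permutation tests (scipy 1.17.1). The smallest two-sided p is 0.0357 for 5 against 3 rats, 0.0571 for 4 against 3, 0.00794 for 5 against 5 and 0.0159 for 5 against 4.

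The genes named were the members called, the 2 of highest mean TPM in each family, Kcnj8, the thermal and irritant sensors and the members at the edge of the filter, and any other was named after its values were seen. A few genes that this rule or a marker list takes are not reported here by name. The members, the 11 marker lists and the 4 lists of other genes were chosen with earlier results of these data known. Groups and replicate numbers came from the labels. The samples of a group are taken to be separate rats, as their library names differ. Alternatives changed the pseudocount, filter, scaling, variance model, rats, covariates and fold threshold.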

Additional observations from a re-analysis of the deposited data

Results flagged for a closer look

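Among 33 channel genes named by the rule, 99 groups of 4 or 5 rats were searched for a rat far from the others of its group. There were 4 such values, where chance gives about 1 in 20 groups. Kcnh1 was 1.33 TPM in Control WT rat 1 against 0.69 to 0.77 TPM in the others. Ano9 was 8.92 TPM in Control P1.hMR rat 5 against 9.63 to 9.91 TPM. Kcnj12 was 2.09 TPM in UVB P1.hMR rat 4 against 3.1 to 3.48 TPM, and Trpm7 was 13.86 TPM in Control WT rat 4 against 15.42 to 15.69 TPM.

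The mean of Ano6 went in opposite directions in the 2 genotypes, though in both the UVB rats lay within the range of their controls. UVB WT rats had 34.7 to 38.5 TPM and Control WT rats 28.8 to 41.5 TPM. UVB P1.hMR rats had 33.6 to 37.5 TPM and Control P1.hMR rats 32.8 to 46.6 TPM. Every UVB WT rat lay above the Control WT mean, with a log2 fold change of 0.11, and every UVB P1.hMR rat lay below the Control P1.hMR mean, with -0.13. The interaction was -0.25, with an unadjusted p of 0.116 and an adjusted p of 0.786 in limma.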

How the results depend on the processing

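Of the 24 calls of named genes, 12 were kept in every alternative that left the fold threshold as it was and tested the gene (27, or 28 for genes with a mean of at least 5 TPM), 12 were lost in at least 1 alternative other than leaving out a rat, 7 were lost with a rat left out, and none changed direction in these. The 12 kept were Clca5 and Kcna2 in both genotypes and Clcn2, Kcnab3, Kcnh1, Kcnh3, Kcnk3, Kcnk5, Kcns3 and Clca4l in P1.hMR rats. The 11 members called in WT rats became 3 with a mean of at least 5 TPM required, which left 24 members, 6 with only the groups compared in the fit, 3 with the hair keratin covariate and 4 when the log2 fold change had to be 1 or more in size. Over all genes in WT rats, 340 were higher and 350 lower of 9935 with that mean required. With only the groups compared, 402 were higher and 382 lower of 13105, and with the hair keratin covariate 395 were higher and 220 lower. The 13 in P1.hMR rats became 4 with a mean of at least 5 TPM, 22 with no fold change threshold and 5 with a change of 1 or more. Of the 9935 genes with a mean of at least 5 TPM, UVB raised 413 and lowered 469 past both thresholds in this genotype. The adjusted p alone was passed by 5123 of 13105 genes there, a larger share than the 22 of 63 members. With only the groups compared, Kcna10, Kcnh3, Kcnk3, Kcnq5 and Trpv6 were lost in WT rats. Leaving out 1 rat at a time gave 8 to 12 calls in WT and 12 to 14 in P1.hMR rats, and 0 to 1 for UVB P1.hMR against UVB WT rats, the 1 being Clca2 without UVB WT rat 3. Kcnj13, at -0.54 in WT and -0.49 in P1.hMR rats, was called without Control WT rat 1 (-0.74, adjusted p = 0.0222 in limma) and, in P1.hMR rats, without Control P1.hMR rat 5 (-0.58) or UVB P1.hMR rat 4 (-0.65). Ano5 was called in WT rats without UVB WT rat 3 (0.66, adjusted p = 0.0219). The comparison of the control groups and the interaction had 0 calls in each alternative run for them, and the interaction could not be fitted on only the groups compared. Pairing by replicate number was checked from the deviations of same-numbered rats, whose correlation ran from -0.187 to 0.235 (median -0.005, over 0.1 in 4 of 22 pairs), so the numbers were not taken as pairs. With a replicate block, 12 members were called in WT and 13 in P1.hMR rats, Kcnq5 being lost and Kcnip2 and Trpv3 gained in WT rats. The cause of the calls that moved was not tested. The 3 UVB WT rats and the unknown depth limit what low genes such as Kcna10 and Kcnq5 can show.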
